A study of Mus musculus with 2 samples.

Results

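Pdcd1 encodes PD-1, an inhibitory receptor of T cells, and Cd274 encodes PD-L1, one of its ligands. Both genes were read in every cell of 4T1 mammary tumours, as 2 of the 396 genes that all 4 count tables hold. Female BALB/c mice, 8 weeks old, carried 4T1 mouse mammary carcinoma cells in a mammary fat pad, and treatment began once tumours had reached about 70 mm3 on day 7. There were 4 arms of 6 mice each, which received an isotype antibody, anti-Siglec-E, anti-PD-1 (clone RMP1-14) or anti-Siglec-E with anti-PD-1. Tumour cells were dissociated from 2 tumours per arm, red and dead cells were removed, and EPCAM-positive and EPCAM-negative cells were mixed at 1 to 4, so the shares of cell types were set in part at the bench. The mixture was counted on BD Rhapsody cartridges with a targeted mouse immune panel, which reads a chosen set of transcripts as molecules per cell.

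The deposited samples are 2 cartridges, each with 2 sample tags, which are oligonucleotide labels that mark the cells of an arm. Tags 1 and 2 came from the cartridge with the isotype and anti-Siglec-E arms, and tags 3 and 4 from the cartridge with the anti-PD-1 and combination arms. Nothing in the labels ties a tag to its arm. Each value below therefore belongs to a tag and none to an arm. With 1 sample per group no test was possible: tags of 1 cartridge are not replicates of a condition, cartridge and treatment cannot be told apart, and the 95% intervals below (exact Poisson for levels, exact Clopper-Pearson for shares) cover counting error only. The 4 tags held 12018 cells (up to 6620 in a tag), with a median of 1262 to 1463 molecules per cell. No cell barcode was shared between tags of a cartridge, and 2 to 16 were shared between tags of different cartridges. Levels are CPM, molecules of a gene per 1000000 molecules of the 396 shared genes in the same cells.

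PD-1 appears on T cells after antigen recognition, recruits phosphatases that damp signals from the antigen receptor and from CD28, and stays high on T cells that meet antigen for long. PD-L1 is induced by interferon gamma and other inflammatory signals on tumour cells and on myeloid cells such as macrophages and neutrophils. The transcript says nothing of how much protein reaches the surface, and an anti-PD-1 antibody acts on the protein. The 4T1 tumour is known for drawing large numbers of neutrophils.

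Mouse Pdcd1 lies on chromosome 1 from 94038305 to 94052553, minus strand, with 5 exons and 1930 exon bases, and Cd274 on chromosome 19 from 29367455 to 29388095, plus strand, with 7 exons and 3622 exon bases (GRCm38, GENCODE M21). The 250 bases before each RefSeq start site (GRCm38.p6) are shown because Tcf7 and Lef1, whose proteins bind the TCF/LEF core, were among the genes lowest beside Pdcd1 below, and because NFAT and interferon signals are textbook inducers of the 2 genes. Capitals mark matches to any motif searched, on either strand.
Pdcd1: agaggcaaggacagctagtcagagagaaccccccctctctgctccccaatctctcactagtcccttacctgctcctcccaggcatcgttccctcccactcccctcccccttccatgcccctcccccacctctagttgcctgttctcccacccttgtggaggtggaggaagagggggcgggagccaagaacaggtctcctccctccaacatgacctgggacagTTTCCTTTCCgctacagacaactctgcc
Cd274: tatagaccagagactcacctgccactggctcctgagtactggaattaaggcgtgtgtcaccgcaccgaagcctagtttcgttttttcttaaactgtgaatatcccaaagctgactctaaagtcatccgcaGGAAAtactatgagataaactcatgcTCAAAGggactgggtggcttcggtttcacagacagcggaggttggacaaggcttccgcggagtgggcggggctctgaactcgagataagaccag
The Pdcd1 window is chr1:94052554-94052803, minus strand, and the Cd274 window is chr19:29367188-29367437, plus strand. The NFAT core GGAAA was found at 2 adjacent places in the Pdcd1 window (28 to 24 and 23 to 19 bases before the start, on the strand opposite the gene) and at 1 place in the Cd274 window (120 to 116 bases before). This core is in 55.6% of 32851 such mouse windows. The TCF/LEF core CTTTGA was found once in the Cd274 window, on the opposite strand 94 to 89 bases before the start, and not in the Pdcd1 window (13.8% of all windows). Neither window held the gamma interferon activation site TTCNNNGAA (7.02% of windows), the interferon-stimulated response core (2.98%), the AP-1 site TGANTCA (6.75%) or the NF-kB site (45.8%). A match describes letters in these windows only.

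Cells were sorted into types by the molecules of marker genes. T cells had 2 or more Cd3 molecules and were split into CD8 T cells (2 or more Cd8a plus Cd8b1 molecules), Foxp3 T cells (at least 1 Foxp3 molecule), Foxp3-negative CD4 T cells and other T cells. Neutrophils had S100a8 plus S100a9, the alarmins that fill their cytosol, at 15% or more of their molecules, or at 5% or more with 2 further neutrophil genes. C1q macrophages, Ccr2 monocytes, dendritic, NK, B, mast or basophil, and stromal cells were set by their own markers. Lgals1-high cells had Lgals1 at 2% or more of their molecules and are the gate in which tumour cells were sought. Of the 12018 cells, 6943 were neutrophils, 861 Lgals1-high, 774 T cells, 329 Ccr2 monocytes and 228 C1q macrophages. The 774 include 175 other T cells, whose levels of myeloid genes are given below. Another 1463 cells met no gate, and 1421 of these carried 2 or more neutrophil genes. Cells that met 2 gates, or 1 gate together with a neutrophil share of S100 molecules, were set apart as mixed (1048 cells, 984 of them with T cell molecules), since no doublet caller was run.

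Pdcd1 was a T cell transcript in these tumours. Of its 4678 molecules, 80.7% lay in the T cell gates, 58.7% in CD8 T cells alone and 17.2% in mixed cells. Neutrophils, at 57.8% of all cells, held 0.62%. A molecule was found in 21 of the 6943 neutrophils, and the Pdcd1 level there was 0.73 to 3.37 CPM across tags. That was 0.043 to 0.089% of the level over all T cells, while the T cell genes Cd3e, Cd8a and Trac stood in neutrophils at 0.050 to 0.29% of theirs, so the ranges overlapped. C1q macrophages and Ccr2 monocytes held 2 molecules each, Lgals1-high cells 9, and mast or basophil cells and stromal cells 0. With 17 stromal cells in tag 3, the largest such group, a count of 0 allows a share of up to 17.6% of cells with a molecule, taking 3 cells of the total as the limit.

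**Figure D1:**
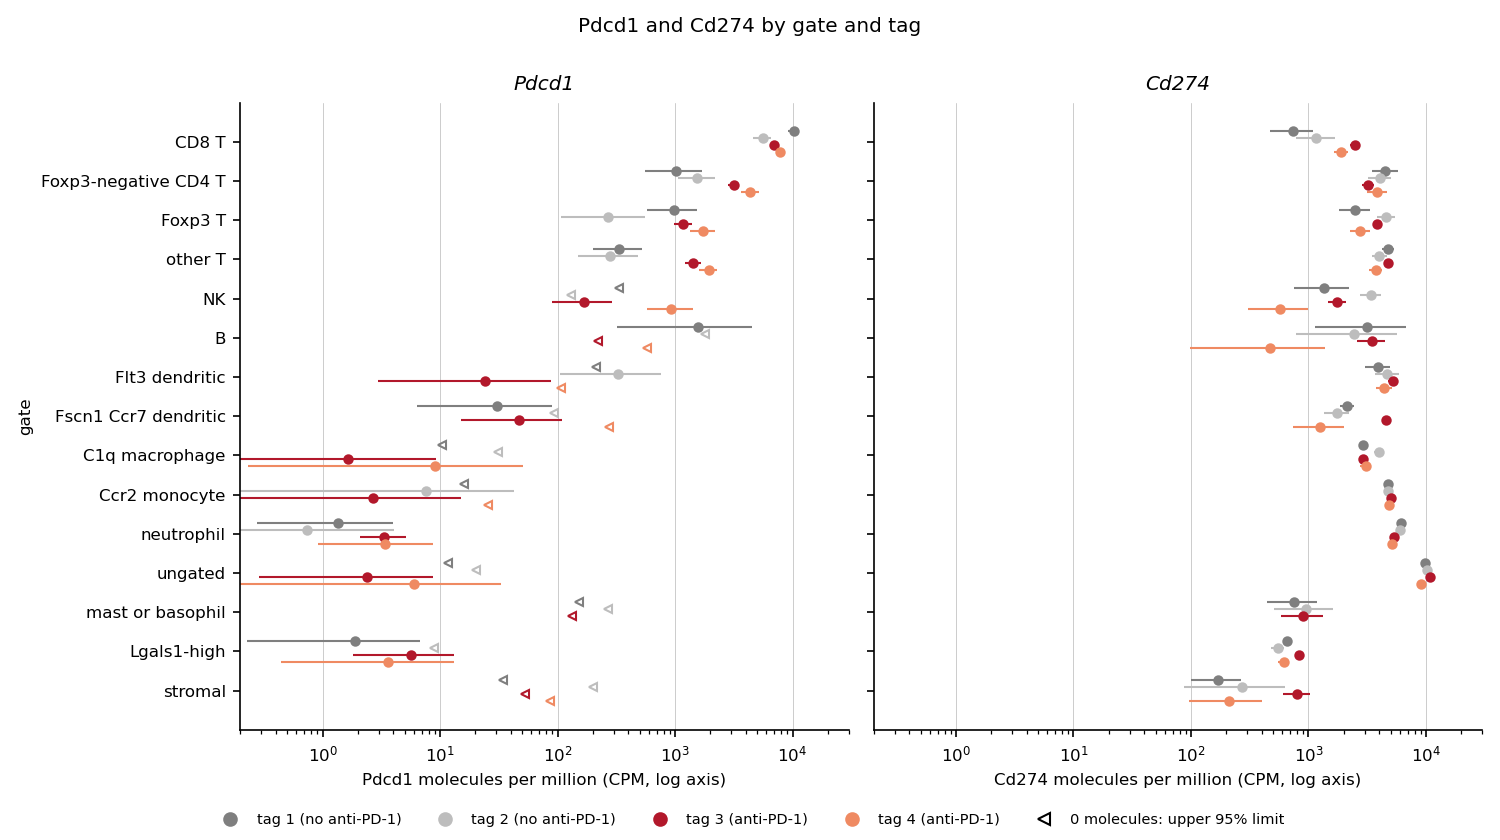
Level of Pdcd1 and Cd274 in CPM (log axis) in each marker gate, 1 point per tag (red and orange for tags 3 and 4, greys for tags 1 and 2), with 95% Poisson intervals and open triangles at the upper limit where a tag had 0 molecules. Pdcd1 was highest in CD8 T cells in all 4 tags and at 0.73 to 3.37 CPM in neutrophils, whereas Cd274 was highest in ungated cells and neutrophils.

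In CD8 T cells Pdcd1 stood at 10265 CPM in tag 1 (interval 9193 to 11427), 5557 in tag 2 (4653 to 6585), 6921 in tag 3 (6560 to 7297) and 7851 in tag 4 (7348 to 8380). The tags of both cartridges overlapped, with tag 1 the highest and tag 2 the lowest. A Pdcd1 molecule was found in 11 of 16, 11 of 17, 105 of 159 and 57 of 72 CD8 T cells, or 68.8, 64.7, 66.0 and 79.2%. The intervals of these shares, 41.3 to 89.0% in tag 1 and 58.1 to 73.4% in tag 3 for example, overlapped in all 4 tags.

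Foxp3-negative CD4 T cells, the helper lineage, came next. Their Pdcd1 level was 1014 CPM in tag 1, 1546 in tag 2, 3147 in tag 3 and 4357 in tag 4, below the CD8 T cell level of every tag. Foxp3 T cells, the regulatory lineage, stood at 975, 268, 1179 and 1733 CPM, and other T cells at 335, 281, 1431 and 1931 CPM. The ranges of these 3 gates over tags overlapped, so no order among them holds beyond the spread between tags. In NK cells 5 of 128 cells held a Pdcd1 molecule, none of them among the 14 and 17 NK cells of tags 1 and 2, which allows shares of up to 21.4 and 17.6% by the same limit.

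The molecules were spread very unevenly over cells. In CD8 T cells the mean was 20.9 molecules per cell in tag 1, 7.8 in tag 2, 8.6 in tag 3 and 12.6 in tag 4, with up to 87 in a cell. Cells with 10 or more Pdcd1 molecules made up 50.0, 35.3, 28.3 and 36.1% of the CD8 T cells and held 96.4, 87.2, 82.1 and 83.8% of their Pdcd1 molecules. A minority of the CD8 T cells in tags 2 to 4, and 8 of 16 in tag 1, thus held most of this transcript. Among Foxp3-negative CD4 T cells, 14 of 197 reached 10 molecules, and among Foxp3 T cells 5 of 138, all of these 5 in tags 3 and 4.

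**Figure D2:**
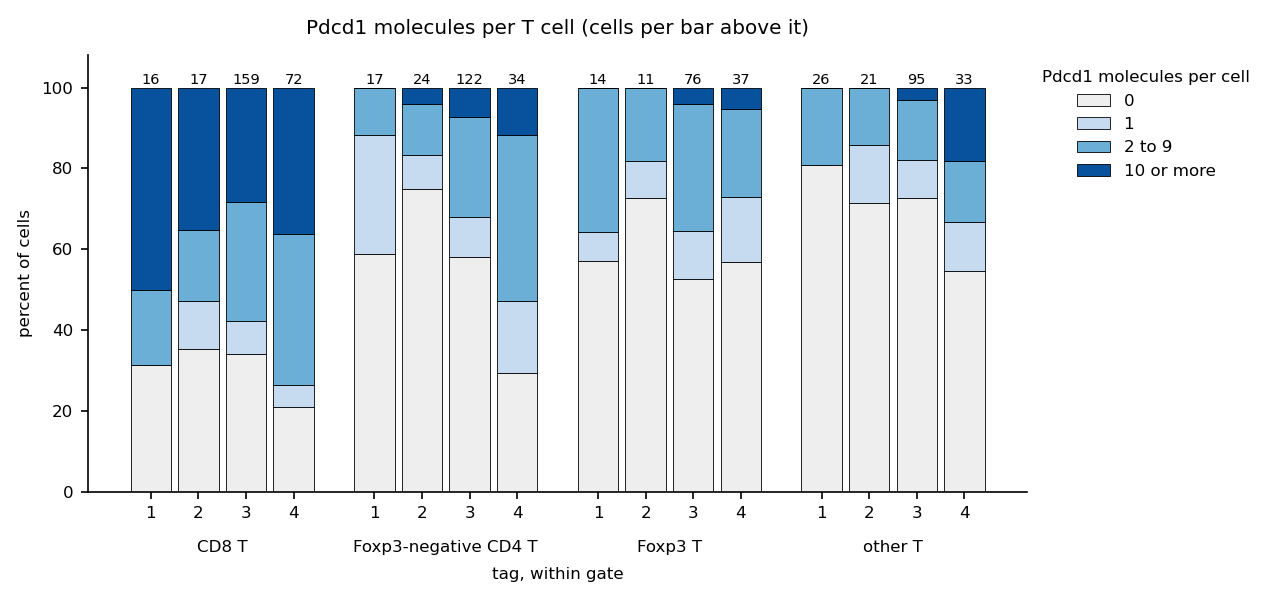
Share of cells (percent) with 0, 1, 2 to 9, and 10 or more Pdcd1 molecules in each T cell gate, 1 bar per tag with the number of cells given. Cells with 10 or more molecules were 28.3 to 50.0% of CD8 T cells and at most 18.2% in any other T cell gate.

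CD8 T cells with and without a Pdcd1 molecule were compared in tags 3 and 4, which had at least 15 cells of each kind (105 against 54, and 57 against 15). A gene was called higher or lower when its level differed at least 1.5-fold the same way in both tags. Of 247 genes with 30 or more molecules, 53 were higher (21.5%) and 49 lower (19.8%). Cells with Pdcd1 also held more molecules in all (median 1244 against 711 in tag 3, and 1285 against 551 in tag 4), which makes any gene easier to find in them. The part of depth in these ratios was not tested. Levels are divided by each group's own total, and ratios below are of CPM with the Pdcd1 molecules left out of that total.

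The naive and memory genes were low in Pdcd1-positive CD8 T cells. All 5 measured genes of that list were called lower, among them Tcf7, Lef1, Ccr7 and Il7r, with a median log2 ratio of -3.10 against 0.13 over all genes. Tcf7 encodes TCF-1, the transcription factor of naive, memory and stem-like CD8 T cells. It stood at 878 CPM with and 5613 without Pdcd1 in tag 3 (ratio 0.16, interval 0.13 to 0.19), and at 202 and 11103 CPM in tag 4 (0.02, 0.01 to 0.03). It was found in 16.7% of the 162 cells with Pdcd1 and in 78.3% of the 69 without. Others among the 5 lowest were Il6ra, the interleukin 6 receptor (ratios 0.06 and 0.17), Lef1, a partner of TCF-1 (0.24 and 0.12), and Cxcr3, a chemokine receptor of effector and memory T cells (0.26 and 0.12).

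Of the 7 measured genes of the list of PD-1 ligands and costimulation, 3 were called higher with Pdcd1 (Tnfrsf4, Tnfrsf9 and Tnfrsf18, receptors of the TNF receptor family) and 1 lower (Cd28), with a median log2 ratio of 0.80. In tag 4 the intervals of Tnfrsf4 (0.68 to 6.84) and Tnfrsf18 (0.97 to 2.86) included a ratio of 1. Outside the list, and looked up after their values were seen, 2 further TNF receptor family genes were called lower: Tnfrsf1b (0.56 in both tags) and the death receptor gene Fas (0.41 and 0.21). Tnfrsf9, which encodes 4-1BB, stood at 6860 against 1451 CPM in tag 3 (ratio 4.73, interval 3.70 to 6.13) and at 6337 against 991 in tag 4 (6.39, 3.45 to 13.39). It was found in 83.3% of cells with and 20.3% without Pdcd1. Ctla4, the inhibitory receptor that competes with CD28, was at 1.13 and 1.62 times, which missed the rule.

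Of 10 measured coinhibitory and exhaustion genes, 2 were called higher (Havcr2, which encodes TIM-3, and Cd200) and 1 lower (Eomes, a T-box factor), with a median log2 ratio of 0.45. Havcr2 was at 1737 against 427 CPM in tag 3 (ratio 4.07, interval 2.58 to 6.77) and at 2151 against 99.1 in tag 4, where cells without Pdcd1 held 1 molecule (21.7, 3.85 to 861). Tigit was at 1.11 and 1.54 times and Entpd1, which encodes CD39, at 1.20 and 2.71 times, so neither was called. Lag3 gave 9 molecules over all 12018 cells, too few to describe. Tox, a factor of exhausted T cells read in tags 2 to 4, was at 447 against 278 CPM in tag 3 and gave 60 against 0 molecules in tag 4.

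Of 11 effector genes, 4 were called higher (Gzmb, Prf1, Ifng and Nkg7) and 1 lower (Ccl5), with a median log2 ratio of 0.79. Prf1 in tag 4 rested on 32 against 1 molecules, and its interval there (0.52 to 126) included a ratio of 1. Gzmb, which encodes granzyme B, was at 26095 against 10735 CPM in tag 3 and 22525 against 8129 in tag 4. Ifng, which encodes interferon gamma, was at 3360 against 1024 CPM and 4590 against 1685. Ccl5, a chemokine of memory and effector T cells, went the other way, at 38437 against 90896 CPM and 25838 against 41241. Among 14 interferon and PD-L1-inducing genes, Ifitm2 and Irf8 were higher and Ifngr1, Irf7 and Myc lower (median log2 ratio 0.32).

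The 10 genes with the highest ratios fell into 3 kinds. Cell division genes were Aurkb, a mitotic kinase (30.2 in tag 3, interval 5.30 to 1207, and 11.2 in tag 4, 1.98 to 448, with 1 molecule in the cells without Pdcd1 of each tag), and Tyms, thymidylate synthase (15.1, 5.05 to 73.9, and 7.46, 2.03 to 62.1). Mki67, a proliferation marker, was also called, at 3.45 and 2.51 times. Genes of signalling or secreted proteins were Tnfrsf9, above, Lat2, an adaptor of immune receptor signalling (4.35, 2.69 to 7.46, and 6.44, 1.75 to 53.7), and Spp1, which encodes osteopontin (7.03, 5.25 to 9.63, and 32.5, 5.80 to 1289). The others, Arg1, Mmp12, H2-Eb1, Cxcl1 and H2-Aa, are genes of macrophages and other myeloid or antigen-presenting cells.

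Those 5 rested on few cells. Arg1, the arginase of tumour macrophages, was found in 10 of 162 cells with Pdcd1 and in none without, at least 48.5-fold and at least 10.8-fold higher against a floor of 3 molecules in the cells without Pdcd1 of each tag, yet 82.8% of its molecules lay in 3 cells. Mmp12 had 88.5% of its molecules in 3 cells, H2-Aa 74.6%, H2-Eb1 73.1% and Cxcl1 71.3%. In all, 11 of the 53 higher genes had more than 50% of their molecules in 3 cells. Among the 49 lower genes 11 did so as well, counted in cells without Pdcd1, and Il6ra was 1 of these (56%). The lower genes also held S100a8, Clec4d, C5ar1, Cd14 and Il1rn, which are genes of neutrophils and other myeloid cells. Cells with no molecule of the 4 myeloid genes Clec4d, Clec4e, C5ar1 and Itgam were therefore compared alone in tag 3 (64 with Pdcd1 against 35 without). There 42 of 48 higher genes that still gave a ratio kept their direction and 39 were at least 1.5-fold higher. H2-Aa, H2-DMa and Lyz2 turned. Mgst1, Mmp12 and Vegfa held 4, 5 and 4 molecules with Pdcd1 and 0 without. Only the floor of 3 molecules put their ratios below 1. All 45 lower genes with a ratio kept their direction, 39 of them at least 1.5-fold.

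**Figure D3:**
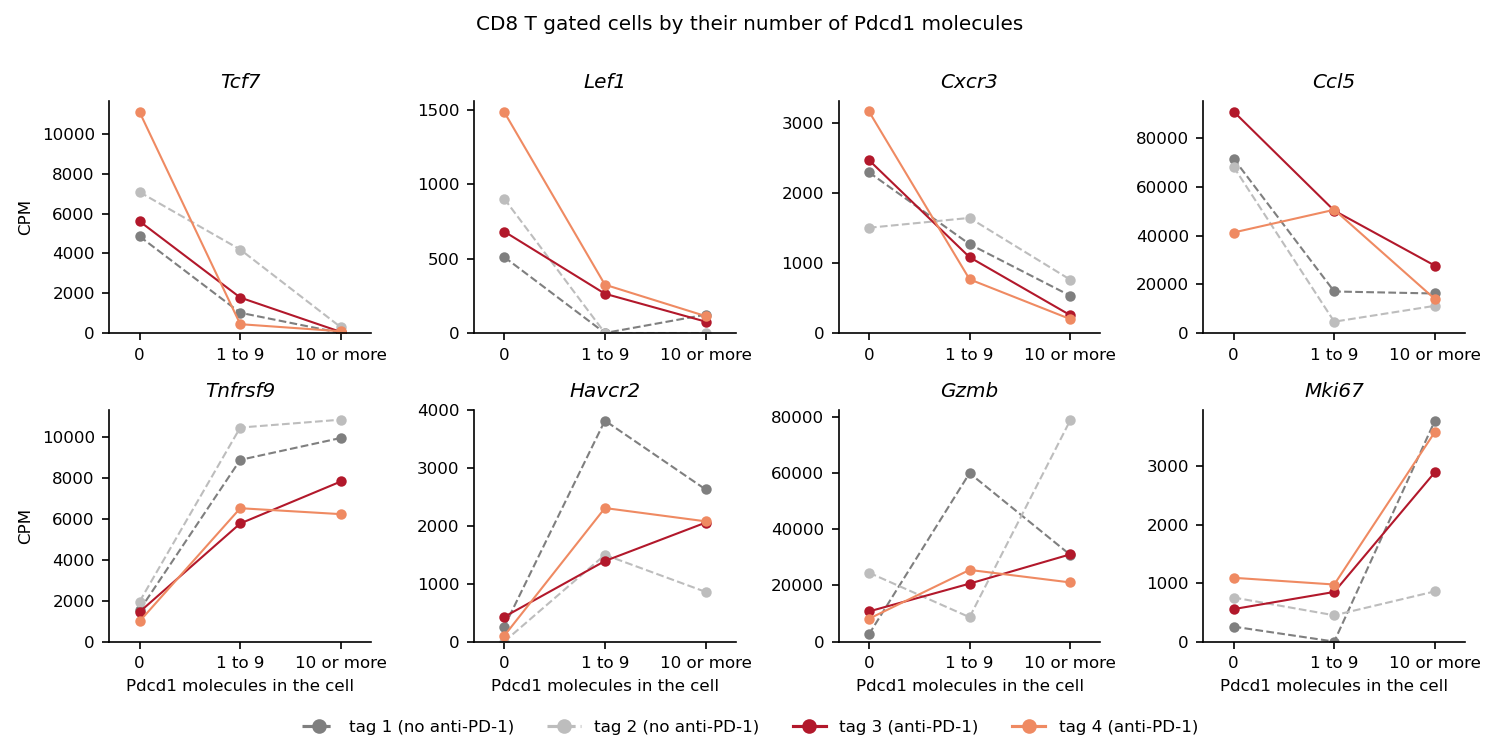
Level in CPM of genes named in the text in CD8 T cells with 0, 1 to 9, and 10 or more Pdcd1 molecules, 1 line per tag. Tcf7 was lower in each class with more Pdcd1 in all 4 tags, from 4857 to 11103 CPM at 0 molecules to 0 to 286 CPM at 10 or more.

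Splitting the CD8 T cells by their number of Pdcd1 molecules gave the same order of classes in all 4 tags for Tcf7. Its level at 0, 1 to 9, and 10 or more Pdcd1 molecules was 4857, 1017 and 0 CPM in tag 1, 7080, 4194 and 286 in tag 2, 5613, 1780 and 51.0 in tag 3, and 11103, 443 and 85.3 in tag 4. Tags 1 and 2 had only 3 to 8 cells in each class. Tnfrsf9 was already high at 1 to 9 molecules (1451, 5786 and 7844 CPM over the 3 classes in tag 3, and 991, 6533 and 6243 in tag 4). Mki67 was highest at 10 or more molecules in all 4 tags, at 3777, 858, 2895 and 3584 CPM against 256, 753, 555 and 1091 at 0. In tag 2 that difference rested on 9 against 5 molecules.

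Tags 1 and 2 did not enter the comparison above and were summed (22 cells with, 11 without Pdcd1). Of the 53 higher genes 40 had the same direction there, and of the 49 lower genes 39. The floor of 3 molecules for 0 set some of these directions. Ccnd2, Traf6, Il15, Cd33, Fam65b and Ighm, among the 39, had 11, 12, 8, 2, 1 and 1 molecules with Pdcd1 and 0 without. Ccl2, Cxcl1, Prf1 and Mgst1, with 6, 7, 3 and 2 against 0, were by the same floor not among the 40. The share over all genes was not counted. Tcf7 stood at 770 against 6256 CPM, Tnfrsf9 at 10164 against 1801 and Spp1 at 5434 against 284. Aurkb was at 990 against 94.8 CPM and Havcr2 at 2156 against 94.8, each with 1 molecule in the cells without Pdcd1. Some genes called lower in tags 3 and 4 went the other way here. Eomes was at 682 against 379 CPM (31 against 4 molecules) and Clec4d at 858 against 190. Cd14 was at 1672 against 1327 CPM and Tnfrsf1b at 4048 against 3697. Arg1 gave 1 against 2 molecules and Mmp12 0 against 1, too few to compare.

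Foxp3 T cells were compared in the same way. In tags 3 and 4 (36 against 40 and 16 against 21 cells), 22 of 228 genes were higher with Pdcd1 (9.65%) and 15 lower (6.58%). The 10 highest were Ccl9, Mmp12, F13a1, Clec4e, Lyz2, Cd86, Arg1, Lgals3, Ube2c and Cmklr1. Most of these are macrophage or neutrophil genes, and Ube2c is a mitotic gene. Of the 22 higher genes 6 were also called higher in CD8 T cells (Arg1, Cd38, Lgals3, Lyz2, Mmp12 and Ube2c), and of the 15 lower genes 4 were also lower there (Cd7, Cxcr3, Il18r1 and Traf6). Whether the 2 gates differ was not tested. Ccl9, a myeloid chemokine, was found in 12 of 52 cells with Pdcd1 and in 1 of 61 without, with 58.9% of its molecules in 3 cells. Lgals3, which encodes galectin 3, was at 3.08 (interval 2.57 to 3.70) and 2.54 times (1.94 to 3.37). The 5 lowest were Cd7, a T cell surface protein, Trib2, Cd1d1, Rora, a nuclear receptor, and Nkg7, a granule protein (0.37, interval 0.28 to 0.49, and 0.51, 0.33 to 0.77). Cd1d1 rested on 11 against 8 molecules in tag 3 and 5 against 13 in tag 4. Its intervals, 0.18 to 1.40 and 0.12 to 1.24, included a ratio of 1. Of the Cd7 molecules in cells without Pdcd1, 63.9% lay in 3 cells. None of the coinhibitory, naive or costimulatory T cell receptors on the lists was called: Cd86 was the only call among 7 costimulation genes, and 0 of 8 coinhibitory and 0 of 5 naive and memory genes were.

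Over all cells Pdcd1 was higher in both tags of the anti-PD-1 cartridge, and was found in 1.77 and 2.90% of the cells of tags 1 and 2 and in 4.43 and 9.70% of those of tags 3 and 4. CD8 T cells were 16 of the 2430 cells of tag 1 and 17 of the 1515 of tag 2, and 2.40 and 4.96% of the cells of tags 3 and 4, shares that the mixing of EPCAM fractions and the dissociation can set. Within CD8 T cells the log2 ratio of the anti-PD-1 cartridge over the other was -0.10 (interval -0.24 to 0.05), and tags of the 2 cartridges interleaved. In a gate, a gene was called between cartridges when the tags of one all lay above those of the other, with a gap of 1.5-fold or more between the closest pair.

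Pdcd1 was called higher in the anti-PD-1 cartridge in Foxp3-negative CD4 T cells, at a log2 ratio of 1.55 (1.09 to 2.01) with the nearest tags 2.04-fold apart. By the same rule 16 of 242 genes were higher in that gate (6.61%). Other genes called higher there were the cytotoxic genes Gzma and Gzmb, the chemokine Ccl5, the chemokine receptor Cxcr6 and the division genes Mki67, Tyms and Ube2c. Of 10 measured effector genes 3 were called higher and 2 lower, Ccl4 and Fasl. In tag 4, 29 Gzma and 132 Ccl5 molecules lay in 5 and 10% of the 20 cells with 1 to 9 Pdcd1 molecules. There, 21 Mki67 molecules lay in 25% of the 4 cells with 10 or more. In Foxp3-negative CD4 T cells with none of the 4 myeloid genes (10, 15, 82 and 26 cells) Pdcd1 stood at 1243, 2522, 3081 and 4420 CPM, a log2 ratio of 0.99, with the nearest tags 1.22-fold apart, which ends the call.

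Pdcd1 was also called higher in other T cells, at a log2 ratio of 2.45 (1.92 to 2.98), where 44 of 282 genes were higher (15.6%). In that gate Cd3e stood at 793, 714, 1941 and 1886 CPM in tags 1 to 4, against 4994 to 6669 in CD8 T cells. S100a8 stood there at 54493, 81309, 31678 and 11838 CPM, and 69.1% of the cells held a myeloid gene. The gate name thus rests on Cd3 molecules only. The part of myeloid RNA in the Pdcd1 difference was not tested. Without cells that held a myeloid gene Pdcd1 stood at 868, 1590, 978 and 5343 CPM in 4, 5, 33 and 12 cells, so that the cartridges overlapped and the call was lost. It was lost as well when cells were thinned to 500 molecules (log2 ratio 1.15). In Foxp3 T cells the log2 ratio was 1.23 (0.61 to 1.84) and the nearest tags were 1.21-fold apart, which missed the rule (8.4% of 250 genes met it as higher, and 36.4% did not overlap in either direction). It was called without tag 1 (2.44) and without tag 3 (1.48). Only 25 Foxp3 T cells came from tags 1 and 2, and these held 25 Pdcd1 molecules. Neutrophil Pdcd1 met the rule too, but its 29 molecules were under the minimum of 30 for a measured gene. It is therefore not among the 13 of 288 measured genes called higher in that gate (4.51%). At 1.35 and 0.73 CPM in tags 1 and 2 and 3.34 and 3.37 in tags 3 and 4, Pdcd1 there rested on 21 of 6943 cells. CD8 T cells were more frequent in tags 3 and 4. The part of T cell RNA from outside the cell in the neutrophil level was not tested.

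Cd274 was found almost everywhere, and most of it in neutrophils. Of 101479 molecules, 60.7% lay in neutrophils, 15.3% in ungated cells, nearly all with neutrophil genes, 9.05% in mixed cells, 4.24% in Ccr2 monocytes, 3.53% in C1q macrophages, 3.26% in T cells and 1.97% in Lgals1-high cells. A molecule was found in 85.7, 86.3, 84.5 and 79.8% of all cells of tags 1 to 4. With a transcript this common a share of positive cells says little, so molecules per cell and levels are given.

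The highest level was in ungated cells, at 9803, 10121, 10892 and 9004 CPM in tags 1 to 4 and 10.4 to 10.7 molecules per cell. Neutrophils followed at 6159, 6014, 5343 and 5137 CPM and 8.5 to 9.7 molecules per cell, with up to 110. Ccr2 monocytes, the inflammatory monocytes of blood and tumour, stood at 4742 to 5087 CPM and 12.8 to 13.4 molecules per cell. C1q macrophages held the most molecules per cell of these 4 types, 15.2 to 16.0, but because they also held the most molecules in all (median 4495) their level was 2887 to 4000 CPM. The ranges of ungated cells, neutrophils and monocytes over tags did not overlap each other. The gates set part of this, since S100a8 was 306506 to 386149 CPM in neutrophils and 16208 to 22119 in ungated cells. Without S100a8, S100a9 and Fth1 in the total, ungated cells with neutrophil genes stood at 12201, 13152, 15637 and 12969 CPM. Neutrophils at 5 to 15% S100a8 plus S100a9 stood at 13685, 12423, 16180 and 18399. At 60% or more they stood at 3259 to 3840. Monocytes overlapped with Flt3 dendritic cells (3894 to 5243 CPM). C1q macrophages overlapped with the CD4, Foxp3 and Fscn1 Ccr7 dendritic gates.

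Lgals1-high cells were among the lowest, at 655, 546, 833 and 619 CPM and 1.9 to 2.5 molecules per cell. Thinned to 500 molecules per cell, 18.9 to 26.9% of them still showed Cd274, against 76.7 to 80.1% of neutrophils and 83.6 to 87.7% of ungated cells. Mast or basophil cells (748 to 954 CPM) overlapped with the Lgals1-high range, as did stromal cells (168 to 799). The mast or basophil gate held 7, 5 and 11 cells in tags 1 to 3 and 0 in tag 4.

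**Figure D4:**
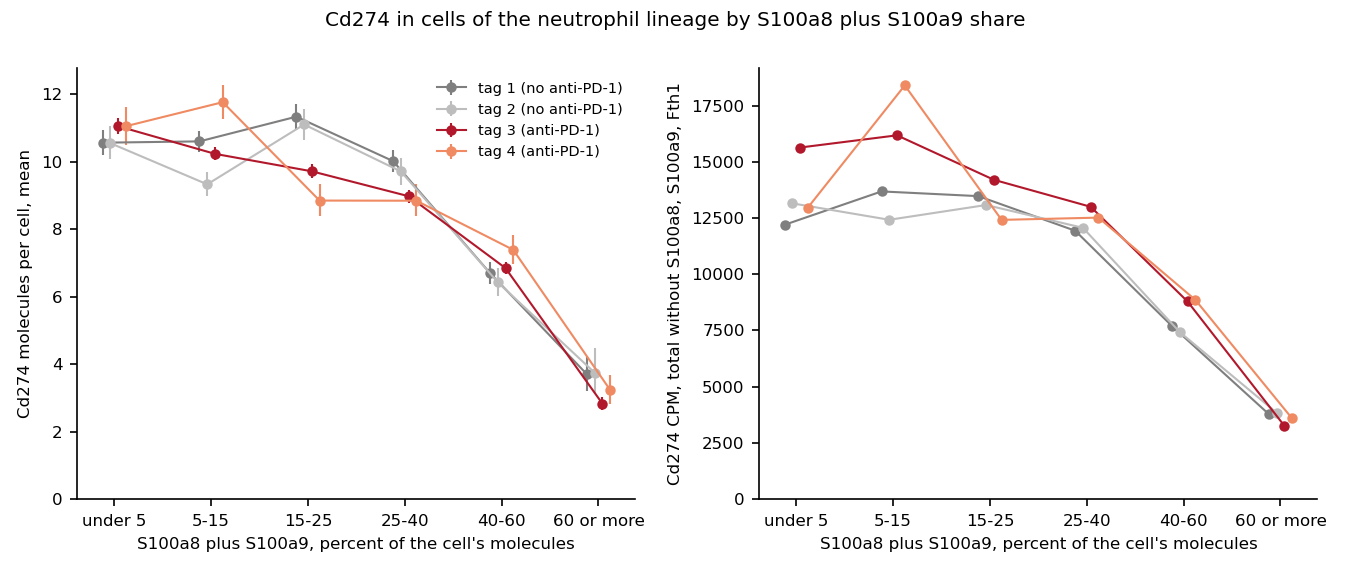
Mean Cd274 molecules per cell, with 95% Poisson intervals, by the share of S100a8 plus S100a9 among a cell's molecules, in neutrophils and in ungated cells with 2 or more neutrophil genes, 1 line per tag. The mean was 8.8 to 11.8 in bins below 40% and 2.8 to 3.8 at 60% or more.

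Within neutrophils and ungated cells with neutrophil genes, Cd274 was lower where the alarmin share was 40% or more. In the bins below 40% its mean was 8.8 to 11.8 molecules per cell. The bin under 5% held ungated cells only, which differed in other genes. Arg1 there was at 6657 to 18093 CPM of the molecules other than S100a8, S100a9 and Fth1, against 134 to 722 at 5 to 15%. The mean was 10.6, 10.6, 11.1 and 11.1 molecules per cell where S100a8 plus S100a9 made up under 5% of molecules. At 40 to 60% it was 6.7, 6.4, 6.9 and 7.4, and at 60% or more 3.7, 3.8, 2.8 and 3.2. The S100-rich cells held more molecules in all (median 2970 to 3098 against 774 to 835), so fewer Cd274 molecules were counted in deeper cells. From the bin of 5 to 15% to that of 60% or more the mean was lower by 2.86-, 2.49-, 3.61- and 3.63-fold. Cells at 60% or more also held the most Chil3 (5343 to 9260 CPM of the molecules other than S100a8, S100a9 and Fth1, against 62.3 to 125 at 5 to 15%), a gene of young neutrophils. Along the same bins Cxcr2, the receptor that calls neutrophils out of the marrow, was higher at 60% or more (2853 to 3936 against 670 to 1227) and Il1rn, the interleukin 1 receptor antagonist, lower (4459 to 8672 against 41699 to 50585). Cxcl2, a neutrophil-attracting chemokine, was lower as well (22473 to 42336 against 131764 to 141235), and so was Icam1 (240 to 384 against 2724 to 2899). These bins share cells and gene totals, and the values are a description.

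Cd274 in neutrophils was close to even between cartridges. The log2 ratio of the anti-PD-1 cartridge over the other was -0.22 (-0.24 to -0.19), with the nearest tags 1.13-fold apart, under the rule. The tags did not overlap, as for 67.7% of 288 genes in this gate, and the median gene was at -0.26. Under TMM scaling, a trimmed mean normalization, it was 0.04, and it was 0.05 without S100a8, S100a9 and Fth1 in the total. In C1q macrophages Cd274 stood at 2918, 4000, 2887 and 3074 CPM (log2 ratio -0.21, -0.33 to -0.09), with tags overlapping and the median gene at -0.24. It was 0.34 without the 5% of cells with the most molecules and 0.25 after thinning. Ccr2 monocytes were at 0.07 (-0.03 to 0.16).

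In the Foxp3, Foxp3-negative CD4 and other T gates the Cd274 level was higher in cells with a myeloid gene in every tag. In CD8 T cells that held in tags 3 and 4 only. CD8 T cells stood at 738, 1170, 2473 and 1885 CPM, which met the rule as higher in the anti-PD-1 cartridge (log2 ratio 1.19, 0.78 to 1.60, among 21 of 254 genes, 8.27%). The other genes called higher there included Arg1, Cxcl1, Cxcl2, Cd14, Il1a, Nlrp3, Tlr2 and Mmp12, which are genes of myeloid cells. In CD8 T cells with none of the 4 myeloid genes (167 of 264), Cd274 stood at 1111, 1220, 1301 and 1034 CPM, with a log2 ratio of 0.00, and the cartridges overlapped. Of these 4, Clec4d, Clec4e and C5ar1 were among the genes most like Cd274 across gates (Pearson r 0.87, 0.84 and 0.84). The split thus selects on genes that go with Cd274 and can by itself remove a Cd274 difference. Cells that held a myeloid gene stood at 595 and 1130 CPM in tags 1 and 2 and at 3861.7 and 2980 in tags 3 and 4. The call was also lost when cells were thinned to 500 molecules (0.36).

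**Figure D5:**
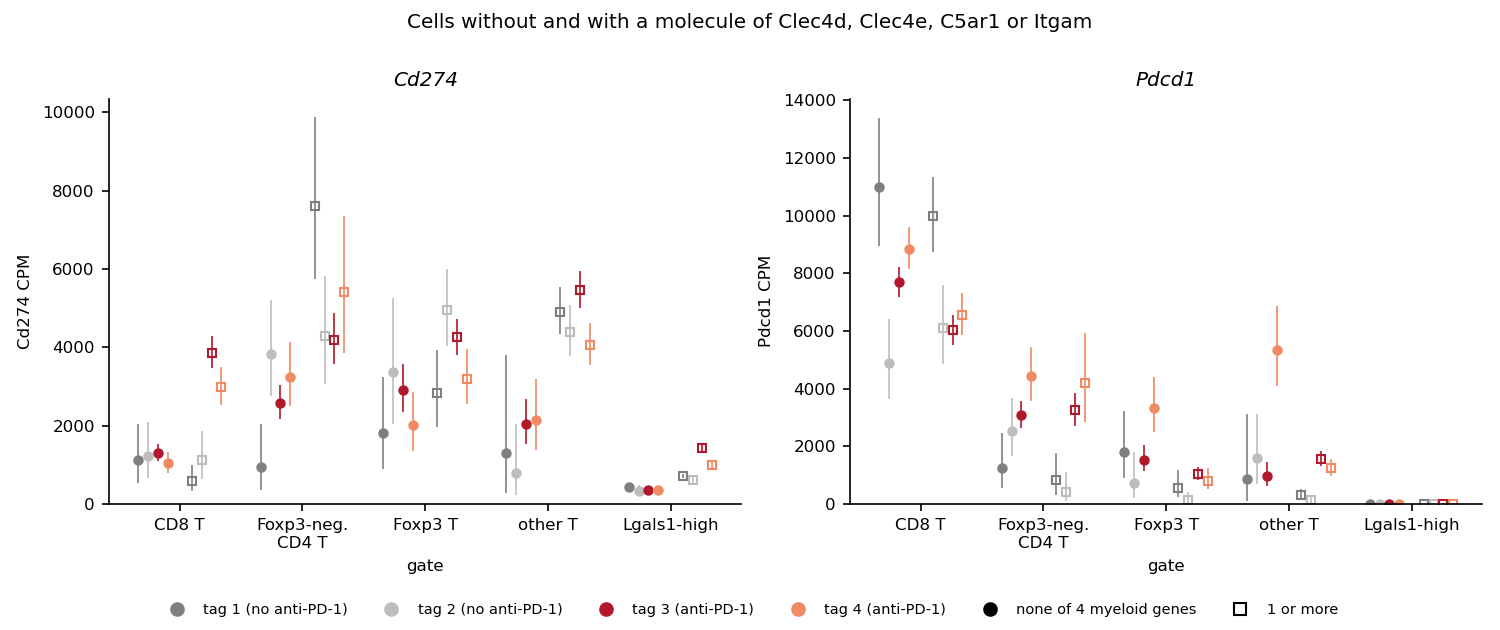
Level of Cd274 (left) and Pdcd1 (right) in CPM in the 4 T cell gates and the Lgals1-high gate, in cells without (filled) and with (open) a molecule of Clec4d, Clec4e, C5ar1 or Itgam, 1 point per tag with its 95% Poisson interval. For Cd274 in Lgals1-high cells the level was 605 to 1421 CPM with a myeloid gene and 330 to 421 without.

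The same split mattered in other gates. In other T cells 93.5% of Cd274 molecules lay in the 69.1% of cells with a myeloid gene, and in Lgals1-high cells 80.1% lay in 54.5% of cells. In Foxp3 T cells the figures were 78.5% of molecules in 43.5% of cells, and in CD8 T cells 69.7% in 36.7%. A deeper cell is more likely to hold a myeloid gene, and the part of depth in these shares was not tested. Without those cells the mean was 1.38 Cd274 molecules per cell in CD8 T cells, 1.95 in Foxp3-negative CD4 T cells, 2.0 in Foxp3 T cells, 1.54 in other T cells, 1.53 in NK cells, 1.02 in Lgals1-high cells and 0.77 in B cells. These 7 means span 0.77 to 2.0, and neutrophils held 8.5 to 9.7. CD8 T cells held 9.2, 7.5, 15.5 and 22.9 Cd274 molecules per 100 of S100a8, and neutrophils 2.0, 2.0, 1.5 and 1.3. The ratio was 29.5 to 91.6 in C1q macrophages and 45.8 to 55.6 in ungated cells, and the part of free RNA from these cells in the T cell level was not tested.

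Lgals1-high cells were checked against epithelial genes in tags 2 to 4, with Epcam, Cdh1 and Msln. Epcam stood there at 8274, 10462 and 9548 CPM of all genes in those tables, Cdh1 at 2572 to 2731 and Msln at 2494 to 2760. These genes were not limited to the gate: Epcam reached 3207 to 8741 CPM in the Fscn1 Ccr7 dendritic gate, 0 to 6346 in the stromal gate and 1942 to 4003 in ungated cells, where Msln was at 724 to 1523, 0 to 132 and 15.6 to 50.9. The Cd274 level of 330 to 421 CPM in Lgals1-high cells without a myeloid gene was below that of CD8 T cells without a myeloid gene in every tag, while the mean per cell, 0.8 to 1.1 against 1.2 to 1.6, differed less because Lgals1-high cells were deeper.

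Among neutrophils, cells with and without a Cd274 molecule were compared in all 4 tags (1273 against 134, 804 against 92, 3489 against 450 and 633 against 68 cells). Of 287 genes, 12 were higher in every tag (4.18%) and 1 lower (0.348%). The highest was Il15ra, the receptor chain that presents interleukin 15 to T and NK cells, at 199 against 76 CPM, 243 against 99, 209 against 57 and 214 against 74 in tags 1 to 4. Il1a, the cytokine interleukin 1 alpha, was at 3238 against 1504, 3407 against 931, 2540 against 335 and 2552 against 508 CPM. The other 10 were Il12a, an interleukin 12 subunit (1.86 to 3.70 times), Havcr2 (1.78 to 3.99), Arg1 (1.69 to 2.78), Bcl2a1a, a survival protein (1.68 to 3.35), Nod1, a sensor of bacterial peptides (1.67 to 2.83), Icam1, an adhesion molecule (1.63 to 5.74), Casp8 (1.56 to 2.85), Ccl4 (1.54 to 3.10), Irf7 (1.53 to 2.26) and Fasl (1.51 to 3.94). Fasl rested on 1, 2, 8 and 1 molecules in the cells without Cd274 of tags 1 to 4, and its interval included a ratio of 1 in every tag. So did those of Havcr2 in tags 1 and 2 and of Arg1 in tag 4. Mbp was lower (0.44 to 0.63).

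Of the lists, 1 of 17 measured interferon and PD-L1-inducing genes was called higher with Cd274 in neutrophils (Irf7, whose call was lost after thinning and without S100a8, S100a9 and Fth1 in the total), with a median log2 ratio of 0.36 against -0.09 over all genes. Of 8 effector genes 2 were called (Ccl4 and Fasl), of 9 coinhibitory genes 1 (Havcr2), and of 8 costimulation genes none. Cells with Cd274 were deeper in tags 1 to 3 (median 1297 against 786, 1233 against 748 and 1282 against 839 molecules) and not in tag 4 (1217 against 1247).

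Since 89.3% of neutrophils held Cd274, cells above the tag's median of Cd274 per 500 molecules were also set against the rest. This gave 12 of 237 genes higher (5.06%) and 5 lower (2.11%). Il15ra was again the highest (1.92 to 2.59 times), followed by Il15, its cytokine partner (1.87 to 2.17), Il1a (1.79 to 2.87), Cxcl10, an interferon-induced chemokine (1.77 to 2.89), Ccl3 (1.61 to 2.17) and Traf6. The lower genes were Ncam1, Igbp1, Lyz2, Selplg and Pdia4. Il15ra, Il1a, Il12a, Bcl2a1a, Nod1, Icam1 and Ccl4 were thus called by both splits. The splits use the same cells and the same Cd274 molecules, so a gene called by both has no separate support. When the first comparison was repeated in cells thinned to 500 molecules, 10 genes were higher, but only 5 of the original 12 were among them (Il15ra, Il1a, Bcl2a1a, Icam1 and Casp8). Arg1, Ccl4, Fasl, Havcr2, Il12a, Irf7 and Nod1 lost their call, and so did Mbp.

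The same median split in Ccr2 monocytes gave 2 of 184 genes higher (1.09%), Cxcl10 (2.0 to 19.9 times) and Cd40, a costimulatory receptor of antigen-presenting cells (1.68 to 2.91), and 4 lower (2.17%): Il7r, Trem2, Top2a and Bin2. In C1q macrophages only tags 1 and 3 had enough cells, and 9 of 152 genes were higher and 9 lower (5.92% each). The higher ones were Cd72 (2.09 to 5.37 times), Il10, an anti-inflammatory cytokine (1.83 to 1.93), Clec4e, Tnf (1.74 to 4.52), Entpd1, Nfkb1, a subunit of NF-kB (1.64 to 1.78), Cd14, Tnfrsf9 and Il1a. The lowest were Lgals1 (0.50 to 0.51), Myc, Fcna, Ybx3 and H2-DMb2. Il1a and Tnfrsf9 were called in both the neutrophil and the macrophage median split, and Cxcl10 in those of neutrophils and monocytes.

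In CD8 T cells with none of the 4 myeloid genes, 13 of 202 genes were higher with Cd274 in tags 3 and 4 (6.44%) and 3 lower (1.49%). Ccl3 (3.24 to 5.11 times), Tfrc, the transferrin receptor (2.18 to 2.61), Ifitm3 and Il7r (1.90 to 3.08) were among the higher, and Eomes, Fam65b and Itgae were the lower. Over all CD8 T cells 49 of 247 were higher (19.8%), led by the myeloid genes Arg1, Mmp12 and Cxcl1, and 6 lower (2.43%), among them Gzmk, Tigit and Ccl5. In Lgals1-high cells with no myeloid gene, 5 of 202 genes were higher (2.48%), among them Cxcl10 (1.60 to 1.86 times) and Fas, and Entpd1 was lower (0.495%). Over all Lgals1-high cells 41 of 258 were higher (15.9%), led by Nlrp3, Clec4e and Arg1.

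Cd274 was less frequent in CD8 T cells with Pdcd1 than in those without it in tags 3 and 4. In tag 3, 66.7% of cells with Pdcd1 and 70.4% of cells without it held Cd274, and in tag 4 59.6 and 73.3%. Thinned to 500 molecules the shares were 48.4 against 74.5% (93 and 51 cells) and 29.6 against 62.5% (54 and 8 cells). In tags 1 and 2, with 5 and 6 cells without Pdcd1, the unthinned shares ran the other way (8 of 11 cells with Pdcd1 in both tags, against 2 of 5 and 3 of 6). Thinned, they were 40% in both kinds of cell in tag 1 and 44.4 against 50% in tag 2. By level, Cd274 at 0, 1 to 9, and 10 or more Pdcd1 molecules was 4076, 2907 and 1161 CPM in tag 3 and 4263, 1833 and 1593 in tag 4.

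Across 49 pairs of gate and tag with 10 or more cells, in 15 gates, the genes whose log2(CPM + 10) was most like that of Pdcd1 among 375 were Trac (Pearson r 0.95), Cd3g (0.94), Cd3e (0.92), Trbc2 (0.90), Cd6 (0.90) and Zap70 (0.89). All 6 are genes of the T cell receptor or its signalling. Those most like Cd274 were Clec4d (0.87), Tnf (0.85), Clec4e (0.84), C5ar1 (0.84), Cd14 (0.84) and Ccr1 (0.84), genes of myeloid cells. Between Pdcd1 and Cd274 r was -0.04. Points of 1 gate share markers, and points of 1 tag share a cartridge and free RNA, so these are descriptions.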

How the data were processed

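Cells of 4T1 tumours were counted on 2 BD Rhapsody cartridges with 2 sample tags each. The deposited values are counts, molecules per cell and target after the pipeline's error correction, and per the file headers came from version 1.12.1 of BD's Targeted Analysis Pipeline. Tag 1 was made with another target reference (397 targets) than tags 2 to 4 (468 genes), per the file headers, so only the 396 shared genes entered totals. The submitters' processing notes name Seurat 3.2.0. For the aligner and build, nothing was given in the sources used here.

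Cells were gated by marker molecules (minimums in the report), counts were summed per gate and tag, and CPM, ratios and exact 95% intervals were computed in Python 3.11.15 (scipy 1.17.1). Cells were thinned to 500 molecules to compare shares. No doublet caller was run. edgeR 4.0.16 served only for TMM factors. Named beside a member are the 10 highest and 5 lowest called genes by the tag nearest to 1, with a floor of 3 molecules for 0. The members, gene lists and gates were chosen with earlier results of these data known. Depth was 2993684 to 12416134 molecules per tag. The comparison of cells with and without a member was tested on simulated data: of genes changed 3-fold, 41 of 50 raised and 35 of 37 lowered were found for Pdcd1 in CD8 T cells (9 of 145 unchanged genes called), and 29 of 50 and 33 of 42 for Cd274 in neutrophils (0 of 184). Motifs were searched on both strands. Promoter windows are from RefSeq (GRCm38.p6). Results for some genes are not reported here.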

Additional observations from a re-analysis of the deposited data

How the results depend on the processing

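Alternatives were other gate minimums, S100 bounds, scalings, depths and the leaving out of each tag. The split by myeloid genes, the median split and the classes of Pdcd1 molecules were added after seeing the data. No paired analysis was possible because each group is 1 sample and tags carry no replicate number. No called difference between cartridges turned its direction under any of these. Beside Pdcd1 in CD8 T cells of tag 3 without a myeloid gene, H2-Aa, H2-DMa and Lyz2 did, among 48 higher genes. Mgst1, Mmp12 and Vegfa fell below 1 only through the floor of 3 molecules for 0. Pdcd1 in CD8 T cells (log2 -0.10) was 0.059 without cells with a myeloid gene, 0.41 without tag 1 and -0.47 without tag 2. Pdcd1 in Foxp3 T cells (1.23) was 0.61 thinned, 2.44 without tag 1 and 0.58 without tag 2. Cd274 in neutrophils (-0.22) was 0.052 without S100a8, S100a9 and Fth1, 0.036 under TMM, -0.17 without the 5% deepest cells, -0.042 thinned, -0.24 without tag 3 and -0.19 without tag 4. Cd274 in C1q macrophages (-0.21) was 0.025 under TMM, 0.34 without the 5% deepest cells, 0.25 thinned, -0.42 without tag 1 and 0.030 without tag 2. The cause was not tested. At a fold of 2, 34 genes were higher with Pdcd1 in CD8 T cells (53 at 1.5-fold) and 2 with Cd274 in neutrophils (12), and 23 (49) and 0 (1) lower. Without S100a8, S100a9 and Fth1, 7 were higher with Cd274, all among the 12, and 5 lower. After thinning 10 were higher, 5 of them among the 12, and 5 lower, without Mbp. With and without comparisons for Cd274 in macrophages and dendritic cells were not run, with too few cells lacking Cd274, nor was thinning for Pdcd1 in CD8 T cells, which left 8 cells without Pdcd1 in tag 4. The number of T cells limits tags 1 and 2, with 11 to 17 CD8 T cells or Foxp3 T cells each.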
